A study of Arabidopsis thaliana with 12 samples.

Results

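Transcript levels of 52 core cell cycle and DNA replication genes were followed in roots of *Arabidopsis thaliana*, in the wild type Col-0 and in *siz1-2*, a mutant allele of the SUMO E3 ligase gene SIZ1. The genes were 7 A cyclins, 9 B cyclins, 10 D cyclins, 5 cyclin-dependent kinases (CDKA and CDKB), 7 KRP inhibitors, 6 genes of the E2F, DP and RBR1 group, MCM2 to MCM7, and both PCNA genes. They were chosen by gene code and not by a measured value, although with earlier results of these data known. The series' table held 23853 genes, among them 51 of the 52. CYCD7;1 (AT5G02110) was not analysed here. CYCD6;1 (AT4G03270) stayed between 0.0318 and 0.433 FPKM (fragments per kilobase of transcript, scaled to the mapped fragments of the library) in all 12 libraries, below the minimum of 1 FPKM in 3 libraries. The other 50 were among the 18743 genes tested.

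Seedlings of both genotypes, 7 days old by the sample labels and a day older by the methods of the study, were kept on MS medium without auxin or given 0.5 µM IAA (indole-3-acetic acid, the main natural auxin) for 3 h. Each of these 4 groups had 3 libraries of whole-root RNA. The study asked how far the auxin response of the root depends on SIZ1, and *siz1-2* is 1 allele of that gene. What separates the 3 libraries of a group is not stated, so p-values measure only the spread between these libraries. In whole roots, fewer cells of a type and less RNA per cell cannot be told apart.

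Plant cells enter the cell cycle when D cyclins bind the kinase CDKA and the complex phosphorylates RBR1, the retinoblastoma protein, which then releases E2F and DP transcription factors from repression. E2F factors drive genes of the S phase, such as the MCM helicase subunits and the sliding clamp PCNA, while A and B cyclins with CDKB kinases act later, up to mitosis. KRP proteins bind and inhibit the cyclin and CDK complexes. Auxin is known to restart this cycle in the pericycle cells from which lateral roots form.

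The transcript of SIZ1 (AT5G60410) lay between 21.5 and 28.0 FPKM in the 6 Col-0 libraries and between 12.8 and 16.6 FPKM in the 6 *siz1-2* libraries, so the genotypes did not overlap. An FPKM of the whole gene does not show whether the remaining transcript is intact. The FPKM of a library summed to between 581254 and 636309. One library, Col-0 IAA replicate 1, stood apart: 1848 genes differed there by over 1 log2 unit from the average of the other Col-0 IAA libraries, and the same count was 54 to 536 in the 11 others. It also held the highest level of its group for all 20 markers of green tissue, such as the small subunits of Rubisco, as did *siz1-2* IAA replicate 2. The summed level of these markers ran from 249 to 1450 FPKM in Col-0 with IAA, from 165 to 1130 FPKM in *siz1-2* with IAA, and from 235 to 350 FPKM over the MS libraries, and 4 of them (RBCS1B, RBCS2B, RBCS3B and LHCB2.2) were listed at 0 in Col-0 MS replicate 2. Results that rest on Col-0 IAA replicate 1 are given with and without it.

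A gene is called higher or lower here where its adjusted p from limma, fitted to log2(FPKM + 0.5) and adjusted over all 18743 genes, was under 0.05. Log2 fold changes on this scale understate the change of low genes. With IAA in Col-0, 5 of the 50 genes rose and 2 fell, 14.0% of them in all. Of all genes tested 17.3% were called there, 9.09% higher and 8.21% lower. In *siz1-2*, 10 rose and 1 fell, 22.0% of the 50, where 17.9% of all genes were called, 9.81% higher and 8.06% lower. For the mean response of both genotypes, 11 rose and 4 fell, or 30.0%, where 28.7% of all genes were called, 15.7% higher and 13% lower. These comparisons share libraries, the mean with each genotype's own. Taken by direction, 20% of the cell cycle genes rose and 2% fell in *siz1-2*, and 22% rose and 8% fell in the mean. In all, 18 of the 50 were called in at least 1 comparison and 32 in none.

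Short of a call, the fitted values leaned up in *siz1-2*. The median log2 fold change with IAA was −0.06 over the 50 genes in Col-0, where the median of all genes was −0.02. In *siz1-2* it was 0.33, where that of all genes was 0.10. Without Col-0 IAA replicate 1 the Col-0 median was 0.14, beside 0.07 over all genes. All 3 IAA libraries lay above all 3 MS libraries for 29 of the 50 in *siz1-2* (58.0%, beside 30% of all genes tested) and for 8 in Col-0 (16%, beside 15.5%). The reverse order held for 2 in *siz1-2* (4.0%, beside 17.5%) and 5 in Col-0 (10%, beside 14.2%).

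Markers of root tissues were measured beside these genes. Of 6 root meristem markers 1 rose with IAA in *siz1-2*, where 9.81% of all genes rose, and none was called in Col-0. Their summed level ran from 37.4 to 41.5 FPKM in *siz1-2* with IAA and from 30.0 to 31.5 FPKM in *siz1-2* on MS. The markers did not move together, as WOX5 went from 1.56 to 2.38 FPKM on MS to 5.78 to 6.67 FPKM with IAA in this genotype, while PLT1 had 4.36 to 4.98 and 3.83 to 4.56 FPKM, and the median log2 fold change of the 6 was 0.07. In Col-0 the summed level ran from 28.6 to 38.5 FPKM with IAA and from 32.3 to 42.6 FPKM on MS, where the groups overlap. Of 5 markers of root tissue layers 3 fell with IAA in Col-0 and 2 in *siz1-2*, where 8.21% and 8.06% of all genes fell. The part of cell composition in the levels of the cell cycle genes was not tested.

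**Figure D1:**
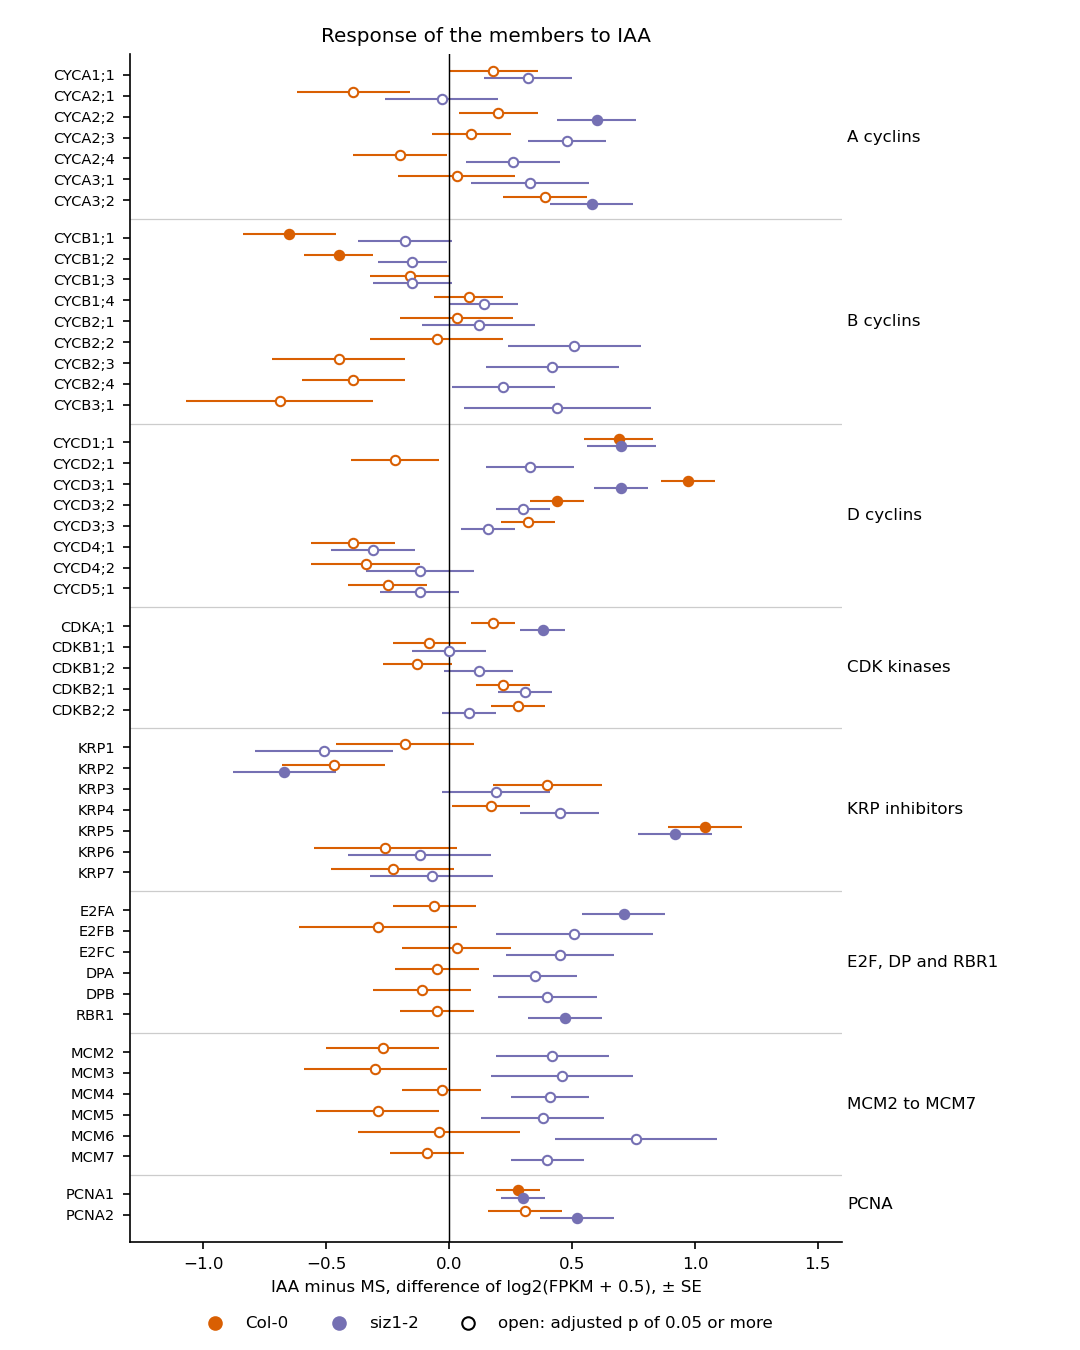
Log2 fold change with IAA of the 50 tested genes, by class, in Col-0 (orange) and *siz1-2* (violet), where points are differences of mean log2(FPKM + 0.5), bars the standard error from limma, and filled points have an adjusted p under 0.05. KRP5 and a D cyclin are the farthest to the right in Col-0, at 1.04 and 0.97, and the 6 MCM genes lie from −0.30 to −0.03 in Col-0 and from 0.38 to 0.76 in *siz1-2*.

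The D cyclins, which start the cycle, held several of the larger rises. Of the 8 tested, 3 rose in Col-0 (37.5%, beside 9.09% of all genes) and 2 in *siz1-2* (25%, beside 9.81%). In the mean of both 4 rose (50%, beside 15.7%) and 1 fell (12.5%, beside 13%). CYCD3;1 (AT4G34160), a D cyclin known to keep cells dividing, was at 15.4, 13.4 and 13.4 FPKM in Col-0 on MS and at 24.8, 29.2 and 30.5 FPKM with IAA. The same gene in *siz1-2* was at 19.6, 19.6 and 20.4 FPKM on MS and 33.3, 30.1 and 34.7 FPKM with IAA. The IAA libraries lay above the MS libraries in both genotypes without overlap, and the *siz1-2* libraries on MS lay above those of Col-0. Its log2 fold change was 0.97 in Col-0 (SE 0.11, adjusted p = 5.5e-05, limma) and 0.70 in *siz1-2* (SE 0.11, adjusted p = 0.00087, limma).

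CYCD1;1 (AT1G70210) rose in both genotypes as well. This D cyclin was at 11.9, 11.4 and 10.1 FPKM in Col-0 on MS and 15.9, 20.0 and 19.1 FPKM with IAA. In *siz1-2* its levels were 11.6, 9.82 and 8.43 FPKM on MS and 17.4, 16.6 and 15.2 FPKM with IAA. The groups did not overlap in either genotype. The log2 fold change was 0.69 in Col-0 (SE 0.14, adjusted p = 0.0045, limma) and 0.70 in *siz1-2* (SE 0.14, adjusted p = 0.0041, limma), and the difference between them was 0.01 (SE 0.20).

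The close relatives of AT4G34160 moved less. CYCD3;2 (AT5G67260) was at 17.4, 17.2 and 19.6 FPKM in Col-0 on MS and 24.5, 26.4 and 23.2 FPKM with IAA, a log2 fold change of 0.44 (SE 0.11, adjusted p = 0.016, limma) that missed the threshold without Col-0 MS replicate 1 (0.42), MS replicate 2 (0.41) or IAA replicate 2 (0.39). In *siz1-2* it went from 16.9, 16.7 and 19.3 FPKM to 21.6, 20.6 and 23.5 FPKM (log2 fold change 0.30, adjusted p = 0.08, limma). The libraries of both genotypes separated MS from IAA, but the second comparison missed the threshold. CYCD3;3 (AT3G50070) was at 20.5, 21.9 and 22.2 FPKM in Col-0 on MS and 29.6, 27.5 and 24.1 FPKM with IAA. Its values in *siz1-2* were 21.0, 21.7 and 22.8 FPKM on MS and 23.0, 25.6 and 25.0 FPKM with IAA. The IAA libraries were above those on MS in both genotypes, and the gene was called for the mean response alone (log2 fold change 0.24, SE 0.08, adjusted p = 0.03, limma), a call lost in 12 of 24 alternatives, 7 of them with 1 library left out. These counts of alternatives for single genes leave out the limit of 1 log2 unit on the fold change, which only KRP5 in Col-0 passes.

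CYCD4;1 (AT5G65420), a D cyclin known from divisions in the pericycle, moved the other way. It was at 4.18, 4.09 and 3.81 FPKM in Col-0 on MS and 2.33, 3.73 and 2.92 FPKM with IAA. In *siz1-2* it was at 4.35, 5 and 5.46 FPKM on MS and 3.90, 3.63 and 4.09 FPKM with IAA. The IAA libraries were below the MS libraries in both genotypes, and the mean response was −0.35 (SE 0.12, adjusted p = 0.043, limma), lost in 12 of 23 alternatives, 9 of them with 1 library left out. CYCD4;2 (AT5G10440) and CYCD5;1 (AT4G37630) had group means from 1.12 to 7.67 FPKM and no call. CYCD2;1 (AT2G22490) was among the higher D cyclins, at 28.2, 26.7 and 21.0 FPKM in Col-0 on MS and 16.1, 27.1 and 22.9 FPKM with IAA. In *siz1-2* it was at 24.7, 27.2 and 26.2 FPKM on MS and 31.4, 30.2 and 37.7 FPKM with IAA. Its Col-0 libraries overlapped between the treatments, while in *siz1-2* the IAA libraries were above those on MS, with no call (log2 fold change 0.33, adjusted p = 0.21, limma).

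**Figure D2:**
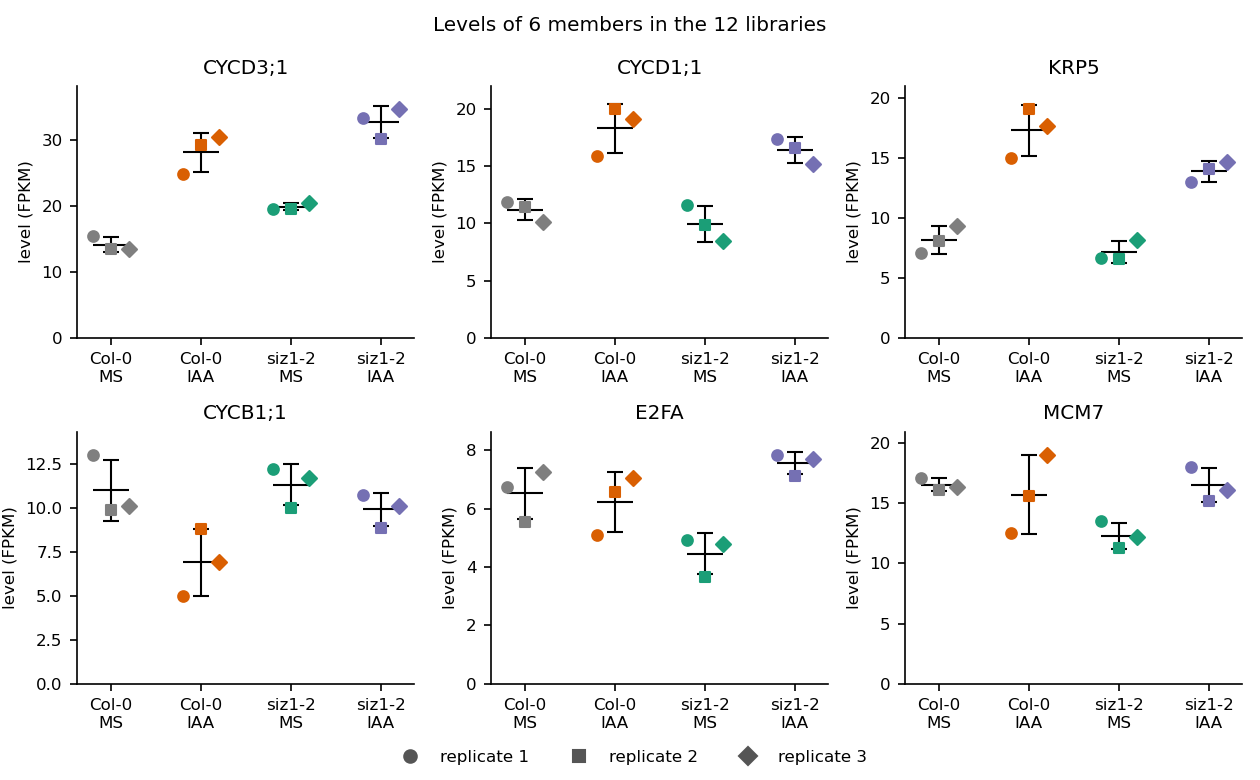
FPKM of 6 genes in the 12 libraries, by group, with circles, squares and diamonds for replicates 1, 2 and 3 and bars for the mean and SD of 3 libraries. Both D cyclins and KRP5 are higher with IAA in both genotypes without overlap, the B cyclin is lower with IAA in Col-0, and E2FA and MCM7 are lower on MS in *siz1-2* (4.46 and 12.3 FPKM) than in the other groups.

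Among the KRP inhibitors, KRP5 rose and KRP2 fell. KRP5 (AT3G24810) was at 7.07, 8.07 and 9.37 FPKM in Col-0 on MS and at 15.0, 19.1 and 17.7 FPKM with IAA. In *siz1-2* it stood at 6.63, 6.60 and 8.20 FPKM on MS and 13.0, 14.1 and 14.7 FPKM with IAA. Every IAA library was above every MS library of either genotype. The log2 fold change was 1.04 in Col-0 (SE 0.15, adjusted p = 0.00027, limma), the only one of the 50 genes called with a rise of at least 1 log2 unit (3.33% of all genes were), and 0.92 in *siz1-2* (SE 0.15, adjusted p = 0.00075, limma).

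KRP2 (AT3G50630), an inhibitor known to hold back lateral root founder cells, was at 12.1, 18.0 and 20.09 FPKM in Col-0 on MS and 8.42, 14.0 and 13.4 FPKM with IAA. In *siz1-2* KRP2 was at 18.0, 16.9 and 13.3 FPKM on MS and 9.96, 9.93 and 9.65 FPKM with IAA. The Col-0 groups overlapped and the *siz1-2* groups did not. KRP2 was called in *siz1-2* (log2 fold change −0.67, SE 0.21, adjusted p = 0.045, limma) and for the mean response (−0.57, SE 0.15, adjusted p = 0.012, limma). In Col-0 it had a log2 fold change of −0.47 and an adjusted p of 0.15 from limma. The *siz1-2* call was lost without Col-0 MS replicate 2 or any *siz1-2* library other than MS replicate 3 (−0.68 to −0.58), and the mean was called in all 24 alternatives without a fold limit. The other inhibitors, KRP1, KRP3, KRP4, KRP6 and KRP7, had no call with all libraries in the fit, with log2 fold changes from −0.51 for KRP1 to 0.45 for KRP4 in *siz1-2*. KRP4 was at 8.03, 7.26 and 7.66 FPKM in Col-0 on MS and 6.52, 10.5 and 9.51 FPKM with IAA, and in *siz1-2* at 5.11, 5.10 and 5.33 FPKM on MS and 7.72, 7.06 and 6.95 FPKM with IAA. Its *siz1-2* libraries on MS lay below all others.

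CDKA;1 (AT3G48750), the kinase that works with D cyclins and the highest of the 52 by FPKM in Col-0, rose in *siz1-2*. It was at 51.7, 48.4 and 49.2 FPKM in Col-0 on MS and 55.3, 58.9 and 55.7 FPKM with IAA. In *siz1-2* this kinase was at 44.5, 46.2 and 43.8 FPKM on MS and 56.6, 58.0 and 60.6 FPKM with IAA. The groups were apart in both genotypes. It was called in *siz1-2* (log2 fold change 0.38, SE 0.09, adjusted p = 0.0089, limma), and in Col-0 it had 0.18 and an adjusted p of 0.17. With each library centred on its median the *siz1-2* call was lost (adjusted p = 0.11 at the most over the alternatives, limma).

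Of the B-type kinases, which act in G2 and mitosis, CDKB2;1 (AT1G76540) was called for the mean response alone. It was at 28.6, 29.0 and 30.7 FPKM in Col-0 on MS and 30.8, 38.4 and 34.6 FPKM with IAA. Its *siz1-2* levels were 31.3, 32.5 and 35.0 FPKM on MS and 38.2, 41.4 and 43.1 FPKM with IAA. All IAA libraries were above the MS libraries of their genotype, with a mean log2 fold change of 0.27 (SE 0.08, adjusted p = 0.018, limma), which missed the threshold without *siz1-2* MS replicate 1 (0.25) or IAA replicate 3 (0.25). CDKB1;1 (AT3G54180), CDKB1;2 (AT2G38620) and CDKB2;2 (AT1G20930) had log2 fold changes between −0.13 and 0.28 in both genotypes and no call. The CDKB2 pair shares 86.1% of its coding bases, the CDKB1 pair 85.4% and the PCNA pair 85.3%. The sources used here do not say how reads that fit both genes of a pair were assigned, so single values of these genes are less certain.

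Of the E2F, DP and RBR1 group, E2FA and RBR1 rose with IAA in *siz1-2* (33.3%, beside 9.81% of all genes) and none was called in Col-0. All 6 genes had positive log2 fold changes in *siz1-2*, from 0.35 to 0.71 with a median of 0.46. In Col-0 the 6 lay between −0.29 and 0.03, with a median of −0.06. Without Col-0 IAA replicate 1 they lay between −0.04 and 0.32, with a median of 0.12 and no call. E2FA (AT2G36010), an activating E2F factor, was at 6.75, 5.54 and 7.26 FPKM in Col-0 on MS and 5.08, 6.57 and 7.04 FPKM with IAA. In *siz1-2* E2FA was at 4.94, 3.66 and 4.79 FPKM on MS and 7.84, 7.12 and 7.71 FPKM with IAA. The Col-0 groups overlapped, and the *siz1-2* groups lay apart with a log2 fold change of 0.71 (SE 0.17, adjusted p = 0.011, limma). Without *siz1-2* MS replicate 2 it was 0.59 and missed the threshold (adjusted p = 0.057, limma).

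RBR1 (AT3G12280), the repressor of E2F factors, was at 16.1, 12.6 and 11.7 FPKM in Col-0 on MS and 12.7, 11.1 and 15.1 FPKM with IAA. Its *siz1-2* libraries were at 10.7, 9.34 and 10.4 FPKM on MS and 15.4, 14.1 and 13.3 FPKM with IAA. Again only the *siz1-2* groups were apart (log2 fold change 0.47, SE 0.15, adjusted p = 0.046, limma), and this call was lost in 15 of 25 alternatives, among them without Col-0 MS replicate 2 and without any of the 6 *siz1-2* libraries in turn (log2 fold changes from 0.41 to 0.52). For both genes the MS libraries of *siz1-2* lay below all MS libraries of Col-0, with log2 differences of −0.50 for E2FA and −0.38 for RBR1 that were not called (adjusted p = 0.12 and 0.20, limma). E2FC (AT1G47870), a member of the family known mainly as a repressor, was at 13.1, 8.95 and 9.38 FPKM in Col-0 on MS and 6.87, 14.1 and 12 FPKM with IAA. In *siz1-2* E2FC was at 10.9, 10.2 and 13.0 FPKM on MS and 15.8, 15.2 and 15.9 FPKM with IAA, above all other groups but not called (log2 fold change 0.45, adjusted p = 0.18, limma). DPA (AT5G02470), a dimer partner of the E2F factors, had the same order, with 13.2 to 14.9 FPKM in *siz1-2* with IAA against 9.48 to 12.2 FPKM on MS. For E2FA and RBR1, the MS libraries of *siz1-2* serve both the response in that genotype and the comparison of the genotypes on MS, so those values are not independent of each other.

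MCM2 to MCM7, the subunits of the replicative helicase, gave no call in either genotype. MCM6 (AT5G44635) was at 9.08, 6.80 and 6.22 FPKM in Col-0 on MS and 3.31, 9.79 and 10.6 FPKM with IAA. In *siz1-2* MCM6 was at 8.58, 7.90 and 6.68 FPKM on MS and 13.8, 10.7 and 16.1 FPKM with IAA. Its Col-0 IAA libraries lay on both sides of those on MS, while in *siz1-2* all IAA libraries were higher. MCM3 (AT5G46280) was at 13.6, 10.5 and 8.31 FPKM in Col-0 on MS and 4.36, 11.9 and 11.6 FPKM with IAA. In *siz1-2* MCM3 was at 12.1, 11.9 and 9.74 FPKM on MS and 15.6, 15.1 and 15.9 FPKM with IAA, again above the MS libraries and above every Col-0 library. MCM7 (AT4G02060), the highest of the 6 on MS in Col-0, had means of 16.5 ± 0.543 FPKM there and 15.7 ± 3.25 FPKM with IAA (SD, n = 3 each). The means of MCM7 in *siz1-2* were 12.3 ± 1.08 FPKM on MS and 16.5 ± 1.44 FPKM with IAA. For this genotype, the 3 IAA libraries were above the 3 MS libraries for all 6 MCM genes, and the log2 fold changes ran from 0.38 for MCM5 to 0.76 for MCM6. The lowest adjusted p was 0.076, for MCM7. In Col-0 the 6 genes had log2 fold changes from −0.30 to −0.03 and overlapping groups.

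Promoter letters are shown for the MCM genes because E2F factors are known to drive these genes. A window of 250 bases before to 50 bases after each annotated gene start (RefSeq, TAIR10.1) was searched on both strands for the E2F site, here the words TTTCCCGC, TTTCCCGG, TTTCGCGC, TTTCGCGG, TTTGCCGC, TTTGCCGG, TTTGGCGC and TTTGGCGG. Of the 6 MCM windows 5 held such a word (83.3%), as did 10 of all 52 (19.2%) and 3.59% of 27443 windows of protein-coding genes. Only 1 such word is shown per gene, although the windows of MCM3 and MCM5 held more. The stretches below run 5′ to 3′ on the strand of the gene and end at the gene start at the latest. Capitals mark the E2F word or its reverse complement.
MCM2: ttggcgccaataTTTCCCGCctaatc
MCM3: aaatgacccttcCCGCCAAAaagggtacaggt
MCM4: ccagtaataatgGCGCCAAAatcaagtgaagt
MCM5: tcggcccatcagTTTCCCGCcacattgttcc
MCM6: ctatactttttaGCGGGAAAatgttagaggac
RBR1: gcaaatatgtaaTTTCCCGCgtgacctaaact
The first capital lay 14 bases before the start in MCM2 (chromosome 1, plus strand), 59 in MCM3 (chromosome 5, minus strand), 35 in MCM4 (chromosome 2, minus strand), 19 in MCM5 (chromosome 2, minus strand), 46 in MCM6 (chromosome 5, minus strand) and 76 in RBR1 (chromosome 3, minus strand). The windows of MCM7, E2FA and both PCNA genes held none of these words. A match of letters is no measure of binding, and the remaining windows with an E2F word belonged to 3 cyclins and DPA.

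Of the sliding clamp genes, PCNA1 rose in both genotypes and PCNA2 in *siz1-2*. PCNA1 (AT1G07370) was at 39.5, 41.6 and 42.3 FPKM in Col-0 on MS and 51.7, 50.5 and 47.5 FPKM with IAA. In *siz1-2* PCNA1 was at 51.7, 48.8 and 52 FPKM on MS and 62.5, 63.5 and 61.7 FPKM with IAA. The IAA libraries were above the MS libraries in each genotype, and each *siz1-2* library was above the Col-0 libraries of its treatment. The log2 fold changes were 0.28 in Col-0 (SE 0.09, adjusted p = 0.045, limma) and 0.30 in *siz1-2* (SE 0.09, adjusted p = 0.032, limma). Of 25 alternatives 19 lost the first call, among them each library left out except Col-0 IAA replicate 3, and 11 lost the second, among them Col-0 MS replicate 2 or any *siz1-2* library left out, while the mean response of 0.29 (SE 0.06, adjusted p = 0.0035, limma) was called in all 24 of its alternatives without a fold limit.

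PCNA2 (AT2G29570) was at 28.2, 24.6 and 23.4 FPKM in Col-0 on MS and 26.2, 39.4 and 30.5 FPKM with IAA. In *siz1-2* its levels were 29.0, 29.6 and 26.7 FPKM on MS and 43.3, 34.8 and 45.7 FPKM with IAA. The Col-0 groups overlapped through Col-0 IAA replicate 1. Without that library and *siz1-2* IAA replicate 2, PCNA2 was called higher in Col-0 as well (log2 fold change 0.45, adjusted p = 0.032, limma). With all libraries, PCNA2 was called in *siz1-2* (log2 fold change 0.52, SE 0.15, adjusted p = 0.03, limma) and for the mean (0.42, SE 0.11, adjusted p = 0.01, limma). The *siz1-2* call was lost without any of the *siz1-2* libraries other than IAA replicate 2, with log2 fold changes from 0.45 to 0.55.

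The A cyclins, which act from S phase to mitosis, gave 2 calls in *siz1-2* (28.6%, beside 17.9% of all genes) and none in Col-0. CYCA2;2 (AT5G11300) was at 4.84, 4.54 and 5.45 FPKM in Col-0 on MS and 4.79, 6.07 and 6.46 FPKM with IAA. In *siz1-2* it was at 5.18, 4.90 and 4.77 FPKM on MS and 7.24, 6.95 and 9.24 FPKM with IAA, a log2 fold change of 0.60 (SE 0.16, adjusted p = 0.019, limma). Only in *siz1-2* were the groups apart, and the difference between the responses, 0.40 (SE 0.23), was not called. The *siz1-2* call was lost without its MS replicate 2 (0.59), MS replicate 3 (0.58) or IAA replicate 3 (0.48).

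CYCA3;2 (AT1G47210), an S-phase A cyclin, was at 21.3, 16.9 and 17.8 FPKM in Col-0 on MS and 19.5, 32.5 and 23.3 FPKM with IAA. Its *siz1-2* libraries held 19.0, 21.4 and 21.3 FPKM on MS and 30.4, 27.9 and 34.7 FPKM with IAA. Col-0 IAA replicate 1 lay within the MS range, and the other IAA libraries of both genotypes were above it. The log2 fold change was 0.58 in *siz1-2* (SE 0.17, adjusted p = 0.03, limma) and 0.39 in Col-0 (adjusted p = 0.13, limma). The call was lost without any of the *siz1-2* libraries other than IAA replicate 2 (0.49 to 0.61). The remaining 5 A cyclins had no call, with log2 fold changes from −0.39 to 0.18 in Col-0 and from −0.03 to 0.48 in *siz1-2*.

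The B cyclins, which drive entry into mitosis, had the lowest median of the classes in Col-0. There 7 of 9 had negative log2 fold changes, with a median of −0.39, and 2 fell (22.2%, beside 8.21% of all genes). Without Col-0 IAA replicate 1 the median was −0.06 and none was called. In *siz1-2* 6 of 9 were positive, the median was 0.14 and none was called. CYCB1;1 (AT4G37490), widely used as a marker of cells in G2 and mitosis, was at 13.0, 9.89 and 10.1 FPKM in Col-0 on MS and 4.99, 8.78 and 6.93 FPKM with IAA. In *siz1-2* this cyclin was at 12.2, 9.99 and 11.7 FPKM on MS and 10.7, 8.87 and 10.1 FPKM with IAA. The Col-0 groups did not overlap and the *siz1-2* groups did. The log2 fold change was −0.65 in Col-0 (SE 0.19, adjusted p = 0.029, limma) and −0.18 in *siz1-2* (adjusted p = 0.54, limma), and the difference between them was 0.47 (SE 0.26, adjusted p = 0.47, limma).

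CYCB1;2 (AT5G06150) was at 22.9, 21.4 and 21.4 FPKM in Col-0 on MS and 13.4, 19.4 and 15.4 FPKM with IAA. In *siz1-2* it was at 20.5, 18.1 and 20.4 FPKM on MS and 19.8, 16.9 and 16.4 FPKM with IAA. The Col-0 groups were apart, with a log2 fold change of −0.45 (SE 0.14, adjusted p = 0.039, limma), and those of *siz1-2* overlapped. Both B cyclins were lowest in Col-0 IAA replicate 1. Without that library the log2 fold change was −0.46 for AT4G37490 (adjusted p = 0.058, limma) and −0.33 for AT5G06150 (adjusted p = 0.083, limma), and neither was called. The call of AT4G37490 was also lost without Col-0 MS replicate 1 (−0.53) or MS replicate 2 (−0.72), and that of AT5G06150 in 12 of 25 alternatives, 8 of them with 1 library left out. For the mean response they had −0.42 (SE 0.13, adjusted p = 0.03, limma) and −0.30 (SE 0.10, adjusted p = 0.035, limma). The other 7 B cyclins lay between −0.69 and 0.08 in Col-0 and between −0.15 and 0.51 in *siz1-2*. The lowest of these in Col-0, AT1G16330 of the B3 type, was at 5.86, 5.19 and 6.19 FPKM on MS and 1.19, 4.95 and 5.74 FPKM with IAA, so that its −0.69 came with 1 library far below the rest.

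The B cyclins shared a promoter word as well. The core of the mitosis-specific activator element (MSA), here the words CCAACGG and CTAACGG and those with T in the first place, TCAACGG and TTAACGG, on either strand, was in 7 of their 9 windows (77.8%), in 14 of all 52 (26.9%) and in 8.03% of all protein-coding windows. It is shown for the 2 called genes and for 2 that were not, with the word or its reverse complement in capitals. Only 1 word is printed per gene, although the windows of CYCB1;2 and CYCB2;2 held more.
CYCB1;1: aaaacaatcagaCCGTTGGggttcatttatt
CYCB1;2: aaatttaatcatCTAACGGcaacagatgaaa
CYCB2;1: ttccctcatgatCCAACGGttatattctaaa
CYCB2;2: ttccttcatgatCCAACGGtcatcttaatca
The first capital lay 61, 45, 87 and 126 bases before the start, in the order printed. The genes lie on chromosome 4 (minus strand), chromosome 5 (minus), chromosome 2 (plus) and chromosome 4 (plus). The word was thus present both in B cyclins that fell in Col-0 and in a pair with log2 fold changes of 0.03 and −0.05 there. An auxin response element (TGTCTC, or TGTCGG, on either strand) was in 7 of the 52 windows (13.5%), beside 18.7% of all. The D cyclins AT4G34160 and AT5G67260, which rose in Col-0, and the B cyclin AT4G37490, which fell, held one. So did CYCA2;4, KRP1, DPA and RBR1, which were not called in Col-0. The D cyclin AT1G70210, KRP5 and PCNA1, which also rose there, held none, and neither did CYCB1;2, which fell.

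**Figure D3:**
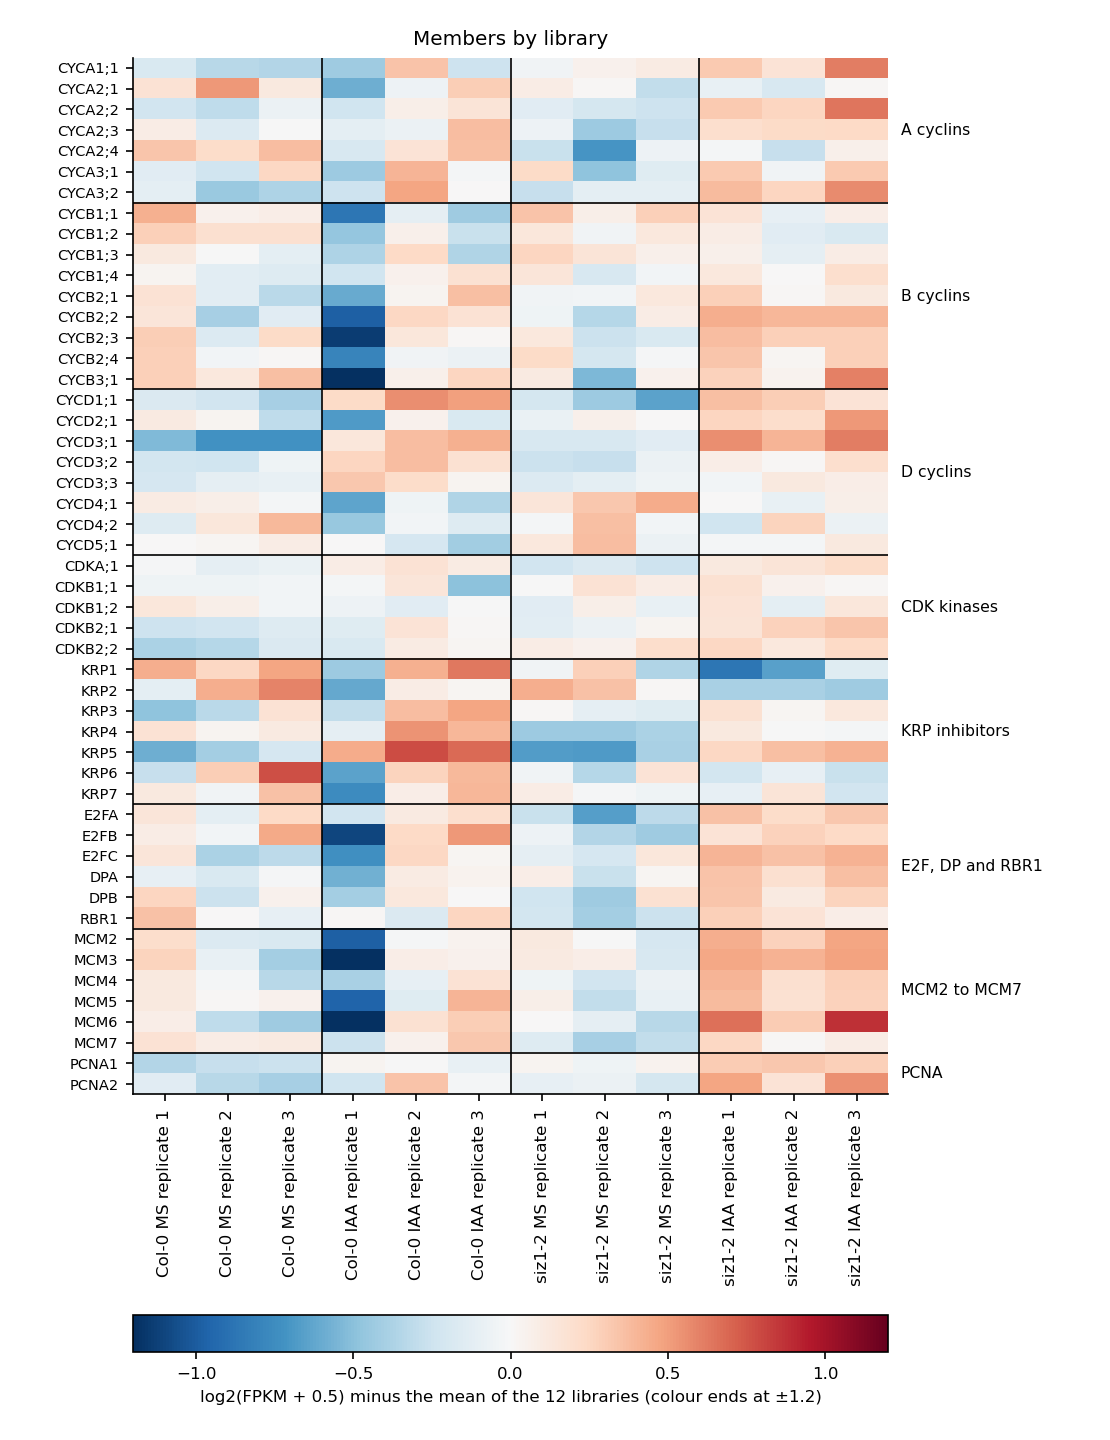
Each row is 1 of the 50 tested genes, by class, and each column 1 of the 12 libraries, with colour for log2(FPKM + 0.5) minus the gene's mean over the 12 libraries, red above and blue below. The column of Col-0 IAA replicate 1 is blue for most B cyclins, KRP and MCM genes, and the 3 columns of *siz1-2* with IAA are red for most classes other than the KRP inhibitors.

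Col-0 IAA replicate 1 was the lowest library of its group for 43 of the 50 genes, beside 10498 of the 18743 tested. The median of the 50 there was −0.47 log2 units from the mean of the other Col-0 IAA libraries, beside −0.20 over all genes tested. It was lowest for all 6 MCM genes (median −1.05), all 9 B cyclins (−0.74) and all 7 KRP genes (−0.71). The same held for all 7 A cyclins (−0.48) and for 5 of the 6 E2F, DP and RBR1 genes (−0.56). MCM6, for example, was at 3.31 FPKM there and at 9.79 and 10.6 FPKM in the other Col-0 IAA libraries. The median deviation was −0.48 for the 25 with shorter exonic length (985 to 1798 bases) and −0.46 for the 25 longer ones (1823 to 3850 bases). Over all genes the 10% with the longest exonic length lay at −0.48 and the 10% with the shortest at 0.01. The ranges of length are not the same in both comparisons, and the part of length in these levels was not tested. The part of the green tissue markers in these levels was not tested. The other library with high markers, *siz1-2* IAA replicate 2, was lowest of its group for 31 of the 50 genes, beside 6737 of the 18743 tested. The median of the 50 there was −0.13, beside −0.02 over all genes.

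**Figure D4:**
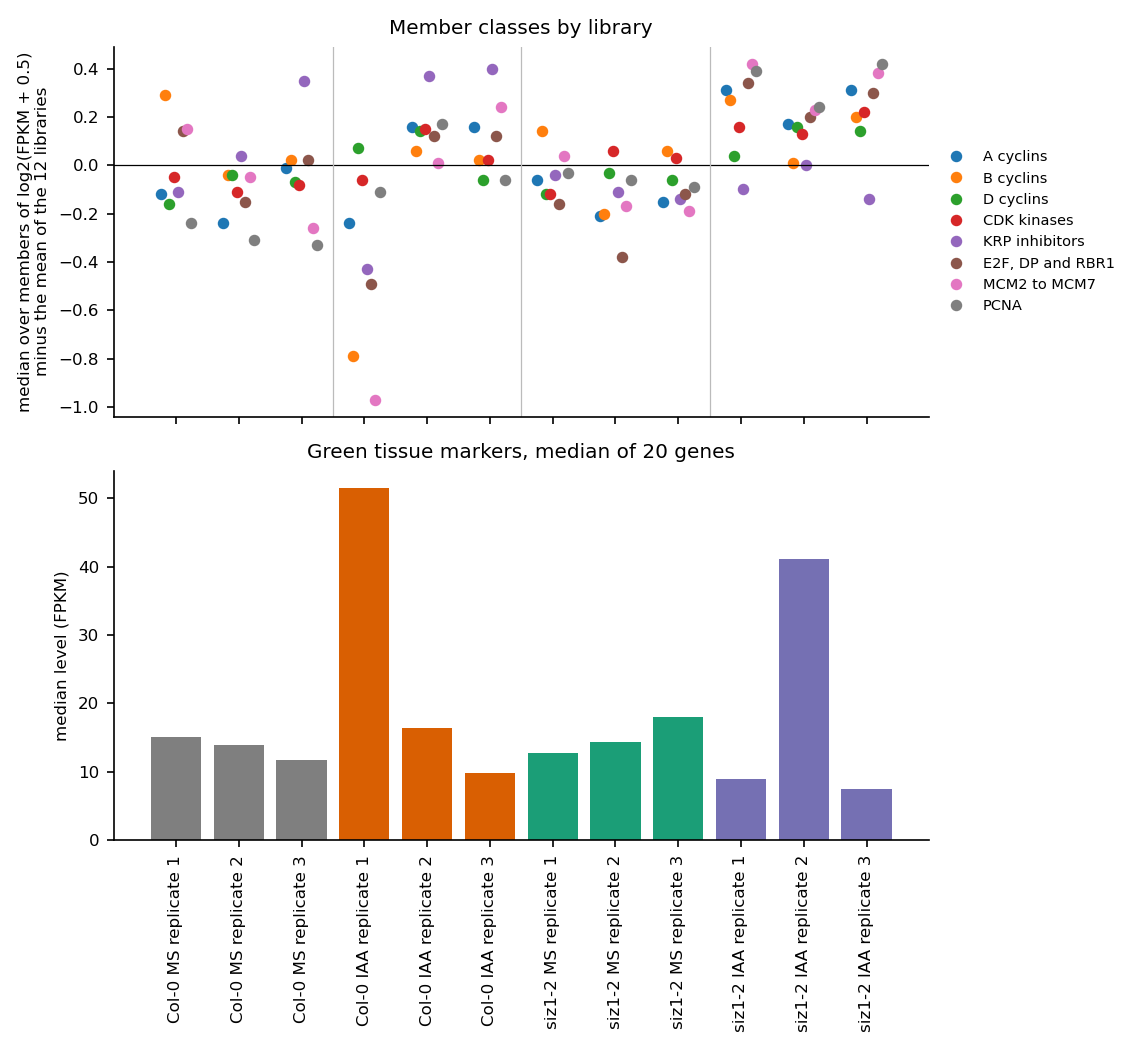
Upper panel, median over the genes of each class of log2(FPKM + 0.5) minus the mean of the 12 libraries, per library, and lower panel, median FPKM of 20 green tissue markers in the same libraries, coloured by group. MCM2 to MCM7 and the B cyclins are lowest in Col-0 IAA replicate 1, at −0.97 and −0.79, where the markers reach 51.4 FPKM. They reach 41.1 FPKM in *siz1-2* IAA replicate 2 and stay at or below 18.0 FPKM elsewhere.

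Leaving that library out changed which classes were called. In Col-0, 9 genes then rose and none fell (21% of all genes tested were called), and the MCM genes had log2 fold changes from 0.06 to 0.46 with no call (lowest adjusted p = 0.10, limma). In *siz1-2*, where the library enters only through the spread shared by all groups, the log2 fold changes stayed as they were and 24 genes rose and 1 fell. That is 50% of the 50 beside 29.2% of all genes, and it took in 5 of 6 MCM genes and 5 of the 6 E2F, DP and RBR1 genes. A fit to the 6 *siz1-2* libraries alone called 25 higher and 1 lower (52%, beside 30.7% of all genes), among them all 6 MCM genes with adjusted p from 0.0081 to 0.04 (limma). With the pair of libraries rich in green markers left out, 16 rose and 1 fell, beside 24.9% of all genes called.

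For none of the 50 genes did limma call a difference between the genotypes in the response to IAA (0.016% of all genes tested were called). The difference between the responses was positive, that is more upward in *siz1-2*, for 42 of 50, with a median of 0.26 beside 0.09 over all genes. With quantile normalization, median centring and median-of-ratios factors it was positive for 34, 33 and 35. The medians were then 0.15, 0.13 and 0.16, beside 0.01, −0.04 and 0 over all genes. Without Col-0 IAA replicate 1 the difference was positive for 34, with a median of 0.13 beside 0.02, and the median of the MCM genes went from 0.68 to 0.32 and that of the B cyclins from 0.47 to 0.18. At an unadjusted p under 0.05 there were 5 genes, or 10%, beside 11.3% of all genes. They were E2FA (0.77, SE 0.24), RBR1 (0.52, SE 0.21), MCM7 (0.49, SE 0.21), CYCB2;3 (AT1G20610, 0.87, SE 0.38) and the D cyclin AT2G22490 (0.55, SE 0.25), with adjusted p of 0.37 to 0.44 from limma. Without that library the same differences were 0.64, 0.51, 0.34, 0.47 and 0.35. No alternative called any of the 50. The lowest adjusted p reached 0.14, without Col-0 IAA replicate 3. A call in Col-0 alone, as for AT4G37490, or in *siz1-2* alone, as for E2FA, is therefore not shown to differ between the genotypes.

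Without auxin the genotypes differed in 1 gene. The D cyclin AT4G34160 was higher in *siz1-2* on MS, by a log2 difference of 0.49 (SE 0.11, adjusted p = 0.026, limma), where 5.3% of all genes were called, 2.75% higher and 2.55% lower. Its 3 *siz1-2* libraries, 19.6 to 20.4 FPKM, lay above the Col-0 range of 13.4 to 15.4 FPKM. The call was lost when any 1 of 5 of the 6 MS libraries was left out, with log2 differences from 0.46 to 0.50, and kept without Col-0 MS replicate 1. Without Col-0 IAA replicate 1, 7 genes were called (11.6% of all genes). AT4G34160, the kinase AT1G20930 and PCNA1 were higher in *siz1-2*, and CYCA2;4 (AT1G80370), KRP4 (AT2G32710), E2FA and MCM7 were lower. The *siz1-2* libraries lay above all Col-0 libraries on MS for 7 of the 50 genes (14.0%, beside 10.4% of all genes) and below them for 10 (20.0%, beside 22.2%).

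With IAA, 2 genes were called higher in *siz1-2* and none lower, where 9.12% of all genes were called, 3.91% higher and 5.21% lower. PCNA1 was higher by 0.32 (SE 0.09, adjusted p = 0.036, limma) and the D cyclin AT2G22490 by 0.60 (SE 0.18, adjusted p = 0.049, limma), both with all *siz1-2* libraries above all Col-0 libraries. Of 25 alternatives 13 lost the call of PCNA1, 7 of them with 1 library left out, and 16 lost that of AT2G22490, 10 of them with 1 library left out. AT2G22490 was lowest in Col-0 IAA replicate 1, at 16.1 FPKM, and without that library its difference was 0.40 and not called. In that fit, with 11.1% of all genes called, PCNA1 was higher in *siz1-2* and KRP1 (−1.08, adjusted p = 0.012, limma) and KRP4 (−0.44, adjusted p = 0.035, limma) were lower. All *siz1-2* libraries were above all Col-0 libraries for 15 of the 50 genes (30.0%, beside 13.9% of all genes tested), 4 MCM genes and 4 B cyclins among them, and below them for 1 (2.0%, beside 14.8%).

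Genes that work beside the 52 were taken from lists of cell cycle and replication factors, 75 in all, of which 74 were tested. With IAA 5 rose and 5 fell in Col-0 (13.5%, beside 17.3% of all genes), 14 rose and 1 fell in *siz1-2* (20.3%, beside 17.9%), and 19 rose and 8 fell in the mean response (36.5%, beside 28.7%). Of 18 replication fork genes 9 rose in the mean (50%, beside 15.7% of all genes) and none fell. RFC3 and RFC2, which encode subunits of the clamp loader that places PCNA on DNA, had mean log2 fold changes of 0.64 (SE 0.08, adjusted p = 5.4e-05, limma) and 0.63 (SE 0.08, adjusted p = 8.3e-05, limma). RNR1 and TSO2, a large and a small subunit of ribonucleotide reductase, had 0.80 and 0.52. Among 18 genes of origin licensing and firing, 4 rose and 1 fell (27.8% in all, near the 28.7% of all genes), with ORC4 at 0.51.

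The SIM/SMR inhibitors, a second family that restrains CDKs, gave 4 rises and 1 fall among 7 tested in the mean response (71.4%, beside 28.7% of all genes). AT5G40460 of this list had a mean log2 fold change of 0.70 (adjusted p = 0.00095, limma) and SMR3 had −0.58 (adjusted p = 0.0033, limma). Activators of the anaphase-promoting complex fell in 3 of 5 genes in the mean (60%, beside 13% of all genes). In Col-0 2 fell (40%, beside 8.21%) and in *siz1-2* none (beside 8.06%). Without Col-0 IAA replicate 1 these counts were the same. In *siz1-2* 4 of the 5 had negative log2 fold changes, with a median of −0.28 beside −0.61 in Col-0. For none of the 74 genes was the difference between the responses called (lowest adjusted p = 0.31, limma), beside 0.016% of all genes. A response called in 1 genotype alone is therefore not shown to differ between the genotypes. Among 9 genes of mitosis and cytokinesis 3 fell and 1 rose in the mean (13% of all genes fell), 2 fell in Col-0 and none was called in *siz1-2*. With Col-0 IAA replicate 1 left out, 2 fell and 1 rose in the mean, and 1 fell and 1 rose in Col-0. CDKD;3, a CDK-activating kinase, rose by 0.45 in the mean and was lower in *siz1-2* on MS by a log2 difference of −0.62 (adjusted p = 0.026, limma). With IAA, AT5G41880 (POLA3, a primase subunit) and RNR1 were higher in *siz1-2* by 0.70 and 0.56. POLD4, a subunit of DNA polymerase delta, was lower by a log2 difference of −0.75. These calls make 4.05% of the 74, beside 9.12% of all genes. Without Col-0 IAA replicate 1, 1 of the 18 replication fork genes was higher and 1 lower, beside 11.1% of all genes called.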

How the data were processed

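The authors deposited 1 table of FPKM per gene for the 12 libraries, made on their sequencing provider's platform. No source used here names the aligner, genome build or annotation. Groups follow sample titles and characteristics, although the labels' treatment protocol names IAA for every sample. Gene names, exonic lengths and promoter letters come from RefSeq (TAIR10.1), and no coordinates are printed.

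Genes that reached 1 FPKM in 3 or more libraries were tested with limma 3.58.1 (R 4.3.3, variance trend) on log2(FPKM + 0.5), with a mean for each of the 4 groups and all 12 libraries in the fit. The Benjamini-Hochberg adjustment ran over all genes of a contrast. The fit was run on simulated data with independent noise, in which no library stood apart as Col-0 IAA replicate 1 does here. Tables were handled in Python 3.11.15 (pandas 2.3.3) and figures drawn with matplotlib 3.10.9. Absolute depth is unknown, as FPKM carry no counts; relative depth, read from steps between low values, was 0.897 to 1.03.

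The genes, lists and tests were chosen with earlier results of these data known. All 52 genes could be named, those called in any contrast by their libraries, and of the other lists the 8 called genes with the smallest p for the mean response and 4 per genotype contrast. On MS, the deviations of Col-0 and *siz1-2* libraries with the same number correlated in all 3 pairs (r = 0.119 to 0.337). This meets the rule used for a pairing (r over 0.1 in every pair). However, Col-0 MS replicate 1 correlated more with *siz1-2* MS replicate 2 (r = 0.15), so a pairing is not settled. The main fit does not use it. Alternatives changed the pseudocount, filter, scaling, limma settings, libraries and fold limit. Removal of a trend with exonic length was added after seeing the data.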

Additional observations from a re-analysis of the deposited data

How the results depend on the processing

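No called gene changed direction under any alternative. Apart from the fold limit, which only KRP5 in Col-0 passes, 15 of the 36 calls were kept in every alternative. These include CYCD1;1, CYCD3;1 and KRP5 in both genotypes and in the mean response. With single libraries left out, the called genes numbered 3 to 9 with IAA in Col-0 (7 with all), 4 to 25 in *siz1-2* (11), 9 to 28 in the mean response (15), 0 to 7 for the genotypes on MS (1) and 0 to 5 with IAA (2). Of all genes tested, 11% to 21.3%, 10.8% to 29.2%, 22.9% to 38.8%, 2.85% to 11.6% and 4.65% to 11.1% were called in the same fits. The lowest numbers of called cell cycle genes came without Col-0 MS replicate 1 or 2 (3), *siz1-2* MS replicate 2 (4) and *siz1-2* IAA replicate 3 (9), and the highest, 25, 28 and 7, without Col-0 IAA replicate 1. Fitting only the groups compared called 3 genes in Col-0, 26 in *siz1-2*, 4 on MS and 0 with IAA between genotypes (9.96%, 30.7%, 8.75% and 4.87% of all genes). With the pair of libraries rich in green markers left out, 17 were called in *siz1-2*, 7 on MS and 1 with IAA (24.9%, 10.7% and 7.53% of all genes). A fold limit of 1 log2 unit left 1 in Col-0 and 0 in *siz1-2*, in the mean and in both genotype comparisons (6.46%, 5.85%, 5.7%, 2.25% and 3.22% of all genes). Median centring and median-of-ratios factors each gave 7 in *siz1-2* (17.6% and 18.2% of all genes) and 2 on MS (5.43% and 5.45%). Quantile normalization gave 2 on MS and 5 with IAA (5.58% and 10.7%), no filter 3 and 1 (4.02% and 6.95%), removal of a length trend 2 and 4 (6.11% and 10.5%). A filter of 5 FPKM gave 2 on MS (5.52%), a pseudocount of 0.1 gave 1 with IAA (8.95%), and limma without the trend 0 with IAA (8.56%). With the replicate number as a block, 4 were called in Col-0 and 0 with IAA between genotypes (15.8% and 8% of all genes). In these comparisons the numbers do not pair the libraries. No call on MS changed. The block gives every group the same effect of the number, so it does not test a pairing on MS alone. FPKM carry no counts, so no depth limit can be given for single genes.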
